A study of Mus musculus with 50 samples.

Results

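The nuclear-encoded subunits of complexes I to IV of the mitochondrial respiratory chain were followed in cultured mouse macrophages and in amputated mouse digits. The members were all genes whose symbols follow the naming of these subunits: Nduf with a, b, c, s or v and a number, Sdha to Sdhd, the Uqcr genes of complex III and the Cox5, Cox6, Cox7 and Cox8 genes. This naming rule, which uses no measured value, took 63 of the 21954 genes in the count tables, of which 36 belong by name to complex I, 4 to complex II, 8 to complex III and 15 to complex IV. Ndufab1, Cyc1, Cycs, Cox4i1, Cox4i2, Cox7a2l and Ndufa4l2 are not named in this way and are given separately.

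Poly-A RNA was sequenced from 50 samples. The 9 macrophage libraries came from bone marrow of female C57BL/6 mice aged 6 to 8 weeks. The cells were differentiated for 7 days in L929-conditioned medium and then kept in basal medium (M0), treated for 24 h with 20 ng/ml IFN-γ and 100 ng/ml LPS (M1), or treated for 24 h with 20 ng/ml IL-4 (M2), with 3 libraries per state. The labels call M0 a baseline and give it no culture time. If M0 was taken before the 24 h, time in culture and treatment cannot be told apart in comparisons with it. The 41 digit libraries came from hindlimb digit 3 of male C57Bl/6 mice aged 9 to 10 weeks, amputated through the distal phalanx. Of these, 29 were non-regenerative digits (NR, amputation level 60 to 80%) at 0, 3, 6, 12 and 24 h and 3, 7, 14 and 21 days, with 3 digits per time and 5 at 7 days. The other 12 were intermediate digits (INT, labelled Medium, amputation level 41 to 55%) at 0 h, 24 h, 14 days and 21 days, with 3 digits per time. The study's methods define non-regenerative as more than 67% amputated, so part of the NR digits fall short of that limit by their labels. Labelled levels were 62, 62 and 75% in NR digits at 0 h and 64, 64 and 67% at 12 h. The labels name no gene alteration in any group. They do not say that the macrophage libraries came from separate cultures or mice, so p-values there measure only the spread between libraries, which may be technical.

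The respiratory chain carries electrons from NADH and succinate to oxygen. Complex I (NADH dehydrogenase) and complex II (succinate dehydrogenase) reduce ubiquinone, complex III (cytochrome bc1) passes the electrons to cytochrome c, and complex IV (cytochrome c oxidase) reduces oxygen. Complexes I, III and IV also pump protons, and each of them combines nuclear-encoded subunits with a few central ones encoded by mitochondrial DNA. Macrophages given LPS and IFN-γ are known for high glycolysis and those given IL-4 for oxidative metabolism.

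Promoters are shown because nuclear genes of the chain are known for binding sites of NRF1, of ETS factors such as GABP and of YY1. RefSeq promoters (GRCm38.p6, 250 bases before to 50 bases after the start) were matched for 52 of the members. On either strand, the letters GCGCANGCG (NRF1-type) occurred in 13 of them, 25.0%, against 7.03% of 27025 genes. CCGGAAG (ETS-type) occurred in 11 members, 21.2%, against 9.93% of genes. AAGATGGCG (YY1-type) occurred in 5 members, 9.62%, against 1.64% of genes. The sequences below are those of Ndufs8, the member with the lowest log2 fold change in M1 against M0, and of Uqcr11, Cox6a1 and Sdhd, the 3 members with both an NRF1-type and an ETS-type match. All lie on the minus strand and are written 5′ to 3′, with the NRF1-type and ETS-type matches in capitals.
Ndufs8, chr19:3912725-3913024: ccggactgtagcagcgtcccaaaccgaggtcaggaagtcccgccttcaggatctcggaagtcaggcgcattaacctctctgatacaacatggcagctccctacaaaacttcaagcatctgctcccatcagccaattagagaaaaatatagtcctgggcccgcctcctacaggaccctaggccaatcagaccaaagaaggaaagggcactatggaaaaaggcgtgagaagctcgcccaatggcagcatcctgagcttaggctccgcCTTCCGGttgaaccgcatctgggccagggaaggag
Uqcr11, chr10:80406772-80407071: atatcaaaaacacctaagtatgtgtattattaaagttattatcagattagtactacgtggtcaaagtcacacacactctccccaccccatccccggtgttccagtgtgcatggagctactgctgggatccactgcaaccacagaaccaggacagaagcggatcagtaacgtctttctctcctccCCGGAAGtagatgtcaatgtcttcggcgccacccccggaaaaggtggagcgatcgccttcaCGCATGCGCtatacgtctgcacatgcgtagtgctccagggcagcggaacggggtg
Cox6a1, chr5:115348909-115349208: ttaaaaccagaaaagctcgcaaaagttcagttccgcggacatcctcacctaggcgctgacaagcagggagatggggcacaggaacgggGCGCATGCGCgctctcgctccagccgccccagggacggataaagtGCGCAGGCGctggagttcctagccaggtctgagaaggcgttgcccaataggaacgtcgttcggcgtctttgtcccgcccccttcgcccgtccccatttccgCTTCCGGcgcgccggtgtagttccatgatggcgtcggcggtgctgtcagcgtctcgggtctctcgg
Sdhd, chr9:50603800-50604099: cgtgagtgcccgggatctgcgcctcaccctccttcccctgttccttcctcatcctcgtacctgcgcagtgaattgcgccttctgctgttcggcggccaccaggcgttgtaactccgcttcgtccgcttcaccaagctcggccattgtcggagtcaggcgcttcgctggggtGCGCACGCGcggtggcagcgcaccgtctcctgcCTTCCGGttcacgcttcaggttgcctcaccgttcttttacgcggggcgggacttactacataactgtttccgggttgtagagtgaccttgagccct
Counted from the first base shown, Ndufs8 held an ETS-type match at 266 to 272, Uqcr11 an ETS-type match at 185 to 191 and an NRF1-type match at 246 to 254, and Sdhd an NRF1-type match at 172 to 180 and an ETS-type match at 205 to 211. Cox6a1 held overlapping NRF1-type matches at 89 to 97 and 90 to 98, another at 134 to 142 and an ETS-type match at 235 to 241. These counts describe letters and not binding.

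Library totals ran from 15683424 to 27904773 expected counts in macrophages and from 1468749 to 13011782 in digits. Levels are given as normalized TPM (a measure of transcript abundance per length, scaled between samples by the authors). M1 markers summed to 14569 to 16046 in M1 libraries, 79.3 to 101 in M0 and 378 to 656 in M2. M2 markers summed to 2954 to 3568 in M2, 914 to 991 in M0 and 495 to 512 in M1, so marker levels followed the labels. Keratinocyte markers summed to at most 1.67 in a macrophage library and to at least 22433 in a digit.

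Per transcript length, the highest member in M0 was Cox8a, a small subunit of cytochrome c oxidase, at a mean of 394 normalized TPM, followed by Cox6c (336), Cox7c (318) and Cox6b1 (307), all of complex IV. Isoforms known from heart and skeletal muscle or testis were low or at 0. Cox6a2 lay at 0.664 to 3.08 and Cox7a1 at 2.05 to 8.52 over the 9 macrophage libraries, Cox6b2 reached 1.78, Cox8b reached 0.827, and Cox7b2 and Cox8c were listed at 0 in all 9. The widely expressed counterparts were far higher, Cox6a1 at 236 to 419.6, Cox7a2 at 111 to 218, Cox6b1 at 293 to 485 and Cox8a at 373 to 618.

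M2 was compared with M0 to ask how the subunits stood after IL-4. Of 59 members tested, 49 rose and 3 fell in edgeR's quasi-likelihood test at a Benjamini-Hochberg adjusted p under 0.05, where 37.4% of 12976 genes were called higher and 37.7% lower. With more than 2-fold of the mean TMM-scaled count plus 1 also required, 3 members were higher and 0 lower, against 11.0% and 11.3% of genes. The 3 were Ndufa12, Ndufb6 and Cox7b, and Uqcrq, at 1.002 on the fitted log2 scale, lay just short on this measure. The median log2 fold change was 0.45 over the members tested and 0.00 over all genes tested. Rises were found in 29 of 36 members of complex I, 3 of 4 of complex II, 7 of 8 of complex III and 10 of 11 tested of complex IV, with medians of 0.43, 0.39, 0.53 and 0.67. Cox6b2, Cox7b2, Cox8b and Cox8c were left out for low counts.

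**Figure D1:**
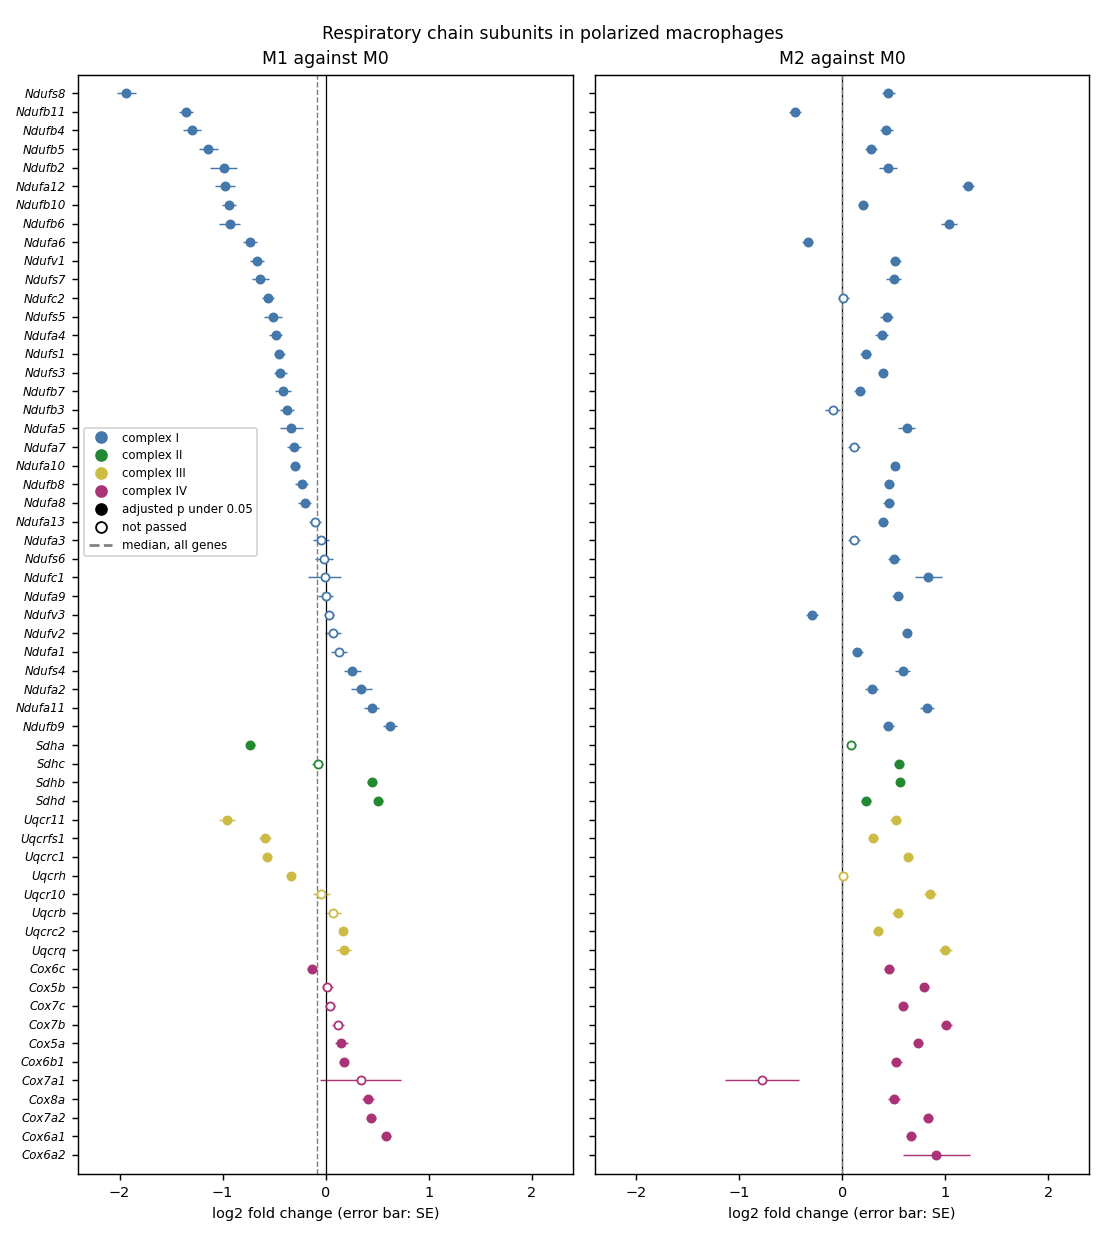
Log2 fold change of the members tested, with SE and with 1 complex I member not drawn, in M1 and in M2 against M0, coloured by complex, with filled points for an adjusted p under 0.05. Against M0 and with that member counted, 49 members lie above 0 past the test in M2, whereas in M1 24 members of complex I lie below 0 and 5 of complex IV above it.

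In complex I, Ndufa12, an accessory subunit, had the highest log2 fold change of all members in M2. It stood at 83.6, 80.0 and 80.2 normalized TPM in M0 and at 207, 190.2 and 189.5 in M2, without overlap (log2 fold change 1.22 ± 0.056 SE, adjusted p = 9.23e-09). Ndufb6, an accessory subunit of the membrane arm, went from 44.4, 49.0 and 44.2 to 91.5, 97.5 and 104 (1.03 ± 0.078, adjusted p = 4.20e-07). Nuclear core subunits, which carry the flavin and iron-sulfur clusters or line the quinone site, also rose, with log2 fold changes of 0.23 for Ndufs1, 0.39 for Ndufs3, 0.45 for Ndufs8, 0.50 for Ndufs7, 0.52 for Ndufv1 and 0.63 for Ndufv2. The accessory subunits Ndufc1 (0.84 ± 0.13) and Ndufa11 (0.82 ± 0.069) rose further.

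The 3 members that fell in M2 were accessory subunits of complex I. Ndufb11 went from 83.9, 79.5 and 83.7 normalized TPM to 61.5, 62.6 and 63.3 (-0.46 ± 0.054, adjusted p = 1.59e-05), and Ndufa6 (-0.34 ± 0.056) and Ndufv3 (-0.30 ± 0.059) fell less. Ndufb11 (GRCm38, chrX:20615326-20617619) overlaps Rbm10 on the other strand. In all, 18 members overlap another coding gene, and no strand-specific counting was stated, so their counts are less certain.

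In complex II, the iron-sulfur subunit Sdhb (0.56 ± 0.042) and the membrane anchors Sdhc (0.55 ± 0.049) and Sdhd (0.23 ± 0.048) rose in M2. The flavoprotein Sdha, at 159.7, 149 and 153 normalized TPM in M0 and 167, 170 and 169.6 in M2, did not pass (0.09 ± 0.045, adjusted p = 0.0868). In complex III, the small subunits Uqcrq (1.002 ± 0.063) and Uqcr10 (0.85 ± 0.059) led. The core proteins Uqcrc1 (0.64 ± 0.043) and Uqcrc2 (0.35 ± 0.045), Uqcr11 (0.52 ± 0.054), Uqcrb (0.54 ± 0.053) and the Rieske iron-sulfur protein Uqcrfs1 (0.30 ± 0.048) also rose, and Uqcrh stood at 0.01 ± 0.046 and did not pass.

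In complex IV, Cox7b went from 79.3, 82.4 and 81.3 normalized TPM in M0 to 157, 173 and 183 in M2 (1.0115 ± 0.056, adjusted p = 3.58e-08). Cox5a (0.74 ± 0.050) and Cox5b (0.80 ± 0.042) rose, as did Cox7a2 (0.83 ± 0.049), Cox6a1 (0.67 ± 0.052), Cox6b1 (0.53 ± 0.052) and Cox8a (0.51 ± 0.059). The muscle isoform Cox6a2 passed at low levels, 1.82, 1.124 and 1.09 against 3.08, 2.89 and 2.116 (0.91 ± 0.33, adjusted p = 0.0251). Cox7a1, at 4.04, 4.02 and 6.28 against 2.05, 3.63 and 2.98, did not (-0.78 ± 0.36, adjusted p = 0.0717).

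M1 was compared with M0 to ask how the subunits stood after LPS with IFN-γ, and here values depended on the scale. The members took 0.142 to 0.145% of counts in M1, 0.265 to 0.275% in M0 and 0.338 to 0.354% in M2. With counts scaled by TMM (trimmed mean of M-values), the median log2 fold change over all 12939 genes tested was -0.09 and that over the members -0.12. With library totals only, an alternative chosen after seeing the data, these medians were -0.86 and -0.90. The members' median relative to that of all genes was -0.04 on both scales.

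On the TMM scale, 13 of 58 members tested rose and 30 fell, where 40.6% of genes were called higher and 45.2% lower. With more than 2-fold also required on the same measure, 0 members were higher and 4 lower, against 20.1% and 26.0% of genes. On library totals, where the median over all genes was -0.86, 0 members rose and 56 fell. The share of all genes called on that scale was not counted. Each of the 13 that rose on the TMM scale had a negative value on library totals. Rises in M1 are therefore rises relative to the bulk of genes only. With all 9 macrophage libraries in 1 fit 8 rose, and Cox5a, Cox6b1, Ndufs4, Uqcrc2 and Uqcrq no longer passed, with adjusted p of 0.0673 to 0.333.

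The complexes differed in where their members lay. In complex I, 24 of 36 members fell and 4 rose (median -0.36), and 25 lay below the median of all genes. In complex IV, 1 of 10 tested fell and 5 rose (median 0.16), and 9 lay above the median of all genes. Complex II had 1 fall and 2 rises among 4 members, and complex III 4 falls and 2 rises among 8. The summed level of complex I was 3045 ± 54.1 normalized TPM in M0, 2418 ± 62.6 in M1 and 3939 ± 41.3 in M2, and that of complex IV 2136 ± 30.8, 2456 ± 68.3 and 3410 ± 4.89 (SD, n = 3). All normalized TPM of a library summed to 1331226 to 1355441 in M1 and to 786283 to 820932 in M0, so these sums carry the same limit.

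In complex I, the core subunit Ndufs8 (GRCm38, chr19:3908863-3912774), which holds iron-sulfur clusters next to the quinone site, had the lowest value of all members. It stood at 48.0, 51.1 and 50.1 normalized TPM in M0, 13.6, 11.2 and 13.3 in M1 and 71.3, 72.8 and 68.2 in M2, so that no state overlapped another (M1 against M0 -1.94 ± 0.095, adjusted p = 1.13e-09). Ndufv1 (-0.67 ± 0.069), Ndufs7 (-0.63 ± 0.082), Ndufs1 (-0.45 ± 0.053) and Ndufs3 (-0.44 ± 0.062) of the core also fell. Ndufv2 did not pass (0.07 ± 0.080, adjusted p = 0.400).

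Of the accessory subunits, Ndufb11 went from 83.9, 79.5 and 83.7 normalized TPM in M0 to 32.0, 34.1 and 30.0 in M1 (-1.36 ± 0.070, adjusted p = 1.83e-09). Ndufb4 (-1.30 ± 0.086) and Ndufb5 (-1.14 ± 0.091) were the other members past 2-fold, and Ndufb2 (-0.99 ± 0.13), Ndufa12 (-0.98 ± 0.096), Ndufb10 (-0.94 ± 0.067), Ndufb6 (-0.93 ± 0.10) and Ndufa6 (-0.74 ± 0.069) followed. Ndufa12, the highest riser in M2, stood at 36.7, 46.7 and 39.9 in M1. In the other direction, Ndufb9 went from 99.5, 104 and 96.1 to 153, 164 and 142 (0.63 ± 0.066, adjusted p = 2.09e-06), and Ndufa11 (0.45 ± 0.073), Ndufa2 (0.35 ± 0.098) and Ndufs4 (0.26 ± 0.087) rose. On library totals these 4 stood at -0.15, -0.33, -0.43 and -0.51. Ndufb9, Ndufa11, Ndufa2, Ndufb2, Ndufb5 and Ndufb6 are among the members that overlap another coding gene.

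The subunits of complex II parted in M1. Sdha, the flavoprotein, went from 159.7, 149 and 153 normalized TPM in M0 to 95.6, 88.8 and 93.1 in M1 (-0.73 ± 0.046, adjusted p = 1.34e-08). Sdhb, which binds to it, went from 108, 111 and 112 to 154, 142 and 149 (0.45 ± 0.046, adjusted p = 1.56e-06), and the anchor Sdhd from 114, 107 and 113 to 153, 156 and 162 (0.51 ± 0.044, adjusted p = 3.12e-07). Sdhc, at 67.8, 81.4 and 76.1 in M0 and 76.6, 69.7 and 70.7 in M1, did not pass (-0.08 ± 0.053). On library totals Sdhb stood at -0.32 and Sdhd at -0.26.

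In complex III, Uqcr11 went from 186, 186 and 195 normalized TPM in M0 to 102, 83.8 and 99.6 in M1 (-0.96 ± 0.078, adjusted p = 1.63e-07). Uqcrfs1 (-0.59 ± 0.060) and Uqcrc1 (-0.57 ± 0.045) fell. Uqcrc2, the partner of Uqcrc1 in the core, rose (0.17 ± 0.043), and so did Uqcrq (0.18 ± 0.072). On library totals Uqcrc2 stood at -0.61 and Uqcrq at -0.60.

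In complex IV, Cox6a1 went from 236, 238 and 254 normalized TPM in M0 to 354, 355 and 366 in M1 (0.58 ± 0.049, adjusted p = 2.16e-07). Cox7a2 (0.44 ± 0.052), Cox8a (0.41 ± 0.059), Cox6b1 (0.17 ± 0.047) and Cox5a (0.15 ± 0.061) rose, and Cox6c fell (-0.14 ± 0.047). Cox5b (0.01 ± 0.052) and Cox7a1 (0.34 ± 0.39) did not pass. On library totals Cox6a1, Cox7a2, Cox8a, Cox6b1 and Cox5a stood at -0.19, -0.33, -0.36, -0.60 and -0.62. Cox6a2, Cox6b2, Cox7b2, Cox8b and Cox8c were left out for low counts.

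**Figure D2:**
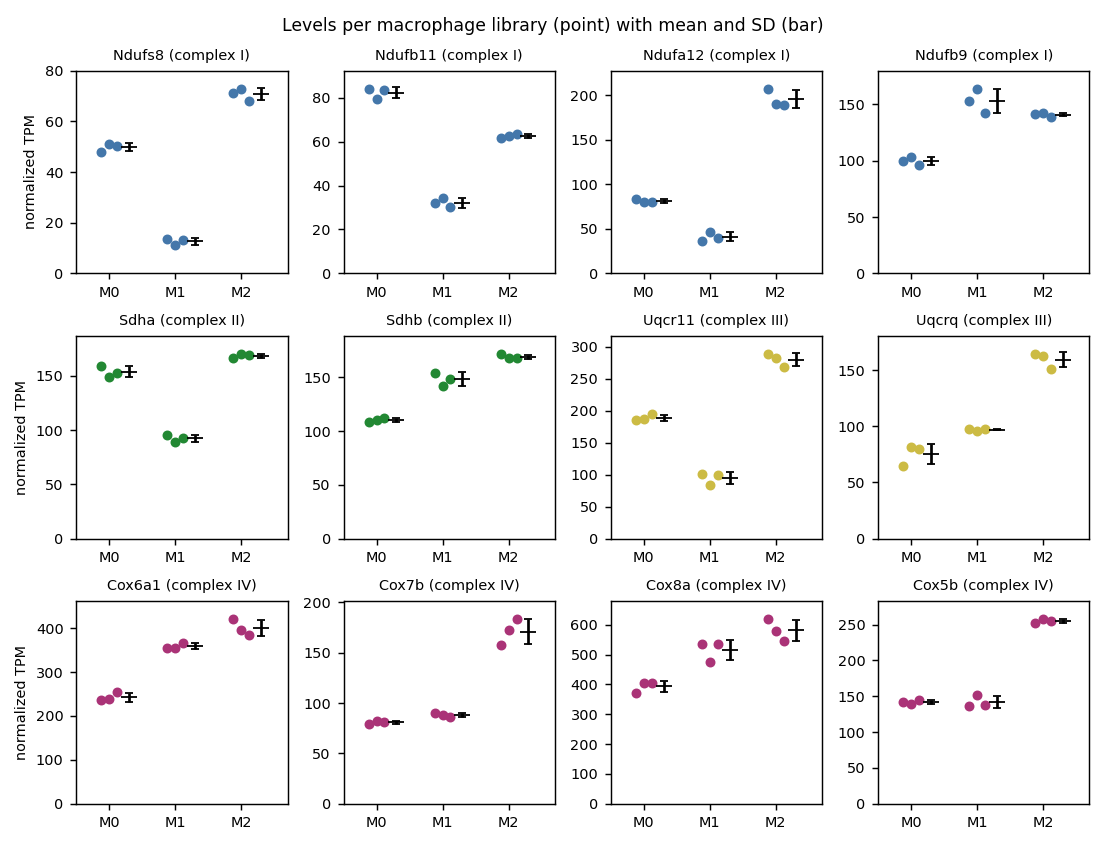
Normalized TPM of 12 members in each macrophage library (points), with the mean and SD of the 3 libraries of M0, M1 and M2. Ndufs8 lies at 11.2 to 13.6 in M1 against 48.0 to 51.1 in M0 and 68.2 to 72.8 in M2, and Cox6a1 at 354 to 366 in M1 against 236 to 254 in M0.

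M1 and M2 were also compared directly. Of 59 members tested, 53 were lower in M1 and 3 higher, where 45.9% of 12934 genes were called lower and 41.9% higher. With more than 2-fold also required on the same measure, 14 were lower and 0 higher, against 27.9% and 20.1% of genes. The median was -0.68 over the members and -0.08 over all genes. Lower in M1 were 32 of 36 members of complex I, 3 of 4 of complex II, 8 of 8 of complex III and 10 of 11 tested of complex IV. The lowest values were those of Ndufs8 (-2.48 ± 0.085), Ndufa12 (-2.300 ± 0.082), Ndufb6 (-2.06 ± 0.088), Ndufb4 (-1.82 ± 0.076), Uqcr11 (-1.57 ± 0.069), Ndufb2 (-1.53 ± 0.11), Ndufb5 (-1.51 ± 0.084), Uqcrc1 (-1.31 ± 0.044), Ndufv1 (-1.28 ± 0.065) and Ndufb10 (-1.23 ± 0.061).

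The 3 members higher in M1 than in M2 were Cox7a1, at 5.59, 2.89 and 8.52 against 2.05, 3.63 and 2.98 normalized TPM (1.03 ± 0.40, adjusted p = 0.0272), Ndufv3 (0.23 ± 0.061) and Sdhd (0.19 ± 0.046). The levels of Cox7a1 overlapped. On library totals 0 members were higher, with Ndufv3 at -0.38 and Sdhd at -0.43. The 3 macrophage comparisons share libraries, so they are set side by side and are not separate evidence.

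Other mitochondrial genes were set beside the members, on the TMM scale, and rises among them in M1 were not recomputed on library totals. Over all genes, 40.6% were called higher and 45.2% lower in M1, and 37.4% and 37.7% in M2. All 11 chain subunits encoded by mitochondrial DNA that were tested fell in M1 (median -1.87), and in M2 5 rose and 3 fell (median 0.16). mt-Nd1, a membrane core subunit of complex I, stood at 3699.5, 3257 and 3527 normalized TPM in M0, 411, 541 and 425 in M1 and 5620.3, 5433 and 4735 in M2. mt-Co1, the catalytic subunit of complex IV, fell least in M1 (-0.39 ± 0.059). These genes took 2.83 to 3.03% of counts in M0, 0.830 to 0.959% in M1 and 2.63 to 2.90% in M2. The RNA was poly-A selected, and tails of mitochondrial transcripts were not measured.

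ATP synthase, the fifth complex, had 11 of 16 genes falling and 1 rising in M1 (median -0.41), and 14 rising and 1 falling in M2 (median 0.54). Of 13 TCA cycle genes, 6 fell and 3 rose in M1 (median -0.04), and 10 rose and 2 fell in M2 (median 0.33). Falls of TCA cycle genes in M1 thus lay near the 45.2% of all genes called lower. Of 43 assembly factors of the chain, 23 fell and 12 rose in M1 (median -0.33), and 26 rose and 6 fell in M2 (median 0.40). Among them Acad9, needed to build complex I, rose in M1 (1.25 ± 0.050) and fell in M2 (-0.39 ± 0.074). Of 17 genes of mitochondrial membranes and import, 11 fell and 3 rose in M1 (median -0.66), and 16 rose and 0 fell in M2 (median 0.89).

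**Figure D3:**
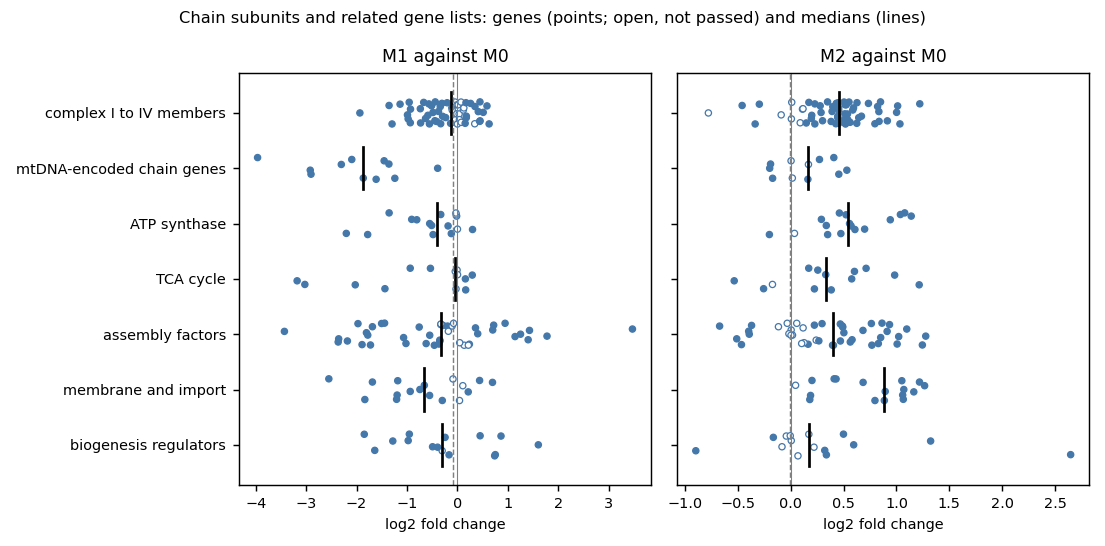
Log2 fold change of single genes (points, open where the adjusted p was 0.05 or more) in the members and related mitochondrial lists, with the median of each (line), for M1 and M2 against M0. The genes encoded by mitochondrial DNA have a median of -1.87 in M1, and the membrane and import genes a median of 0.89 in M2.

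Of 15 regulators of mitochondrial biogenesis tested, 9 fell and 5 rose in M1, and 6 rose and 2 fell in M2. Over all genes, 45.2% fell and 40.6% rose in M1, and 37.4% rose and 37.7% fell in M2. The 6 rises in M2 thus lay near the share of all genes. Ppargc1b, a coactivator, rose in M2 (2.65 ± 0.14) and in M1 (0.75 ± 0.17), and its relative Pprc1 rose in M2 (1.32 ± 0.059) and fell in M1 (-1.28 ± 0.10). Nrf1 rose in M1 (0.86 ± 0.064) and stood at -0.04 ± 0.067 in M2, where it did not pass. Tfb1m (-1.85 ± 0.22) and Tfb2m (-1.64 ± 0.090), which serve mitochondrial ribosomes and transcription, fell in M1.

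Chain genes outside the naming rule had 3 rises and 3 falls among 7 tested in M1, and 4 rises and 1 fall among 6 in M2. The counts in M1 lay near the 40.6% and 45.2% of all genes called higher and lower. Cytochrome c (Cycs) rose in M1 (1.82 ± 0.073) and in M2 (1.83 ± 0.049), and the main isoform Cox4i1 fell in M1 (-0.95 ± 0.043) and rose in M2 (0.19 ± 0.043). Cox4i2 and Ndufa4l2, isoforms known to respond to low oxygen, rose in M1 at low levels, Cox4i2 to 3.66, 2.44 and 4.26 from 1.04, 0.645 and 0.870 normalized TPM and Ndufa4l2 to 8.12, 5.60 and 8.77 from 1.68, 3.004 and 1.76. The member Ndufa4, named for complex I and later assigned to complex IV, stood at 147, 152 and 158 in M0, 113, 104 and 103 in M1 (-0.49 ± 0.064) and 201, 197 and 219 in M2 (0.38 ± 0.061).

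In the digits, 2 libraries stood apart. NR 14 d replicate 2 had 44 of 57 members above and 3 below the range of the other 39 digits, and the members took 0.798% of its counts against 0.268 to 0.393%. Its Cox6c stood at 9028 normalized TPM, where the 39 digits ranged from 563 to 1633. NR 7 d replicate 2 had 21 members below and 6 above that range and 9 at 0. Mitochondrially encoded chain genes took 0.414% and 0.210% of counts in these libraries and 0.779 to 2.02% in the others. Fits without them are given beside the results below.

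**Figure D4:**
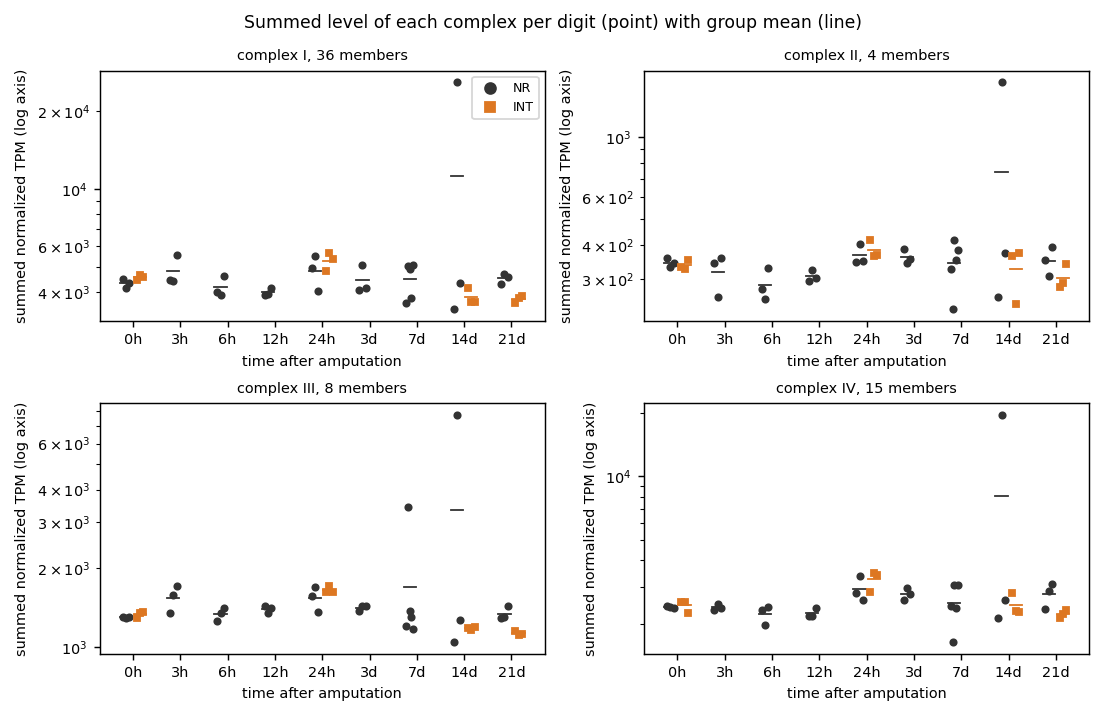
Summed normalized TPM of the members of each complex in every digit (points, log scale), with group means, by time after amputation in NR and INT digits. Over all members NR 14 d replicate 2 sums to 54764, and the 39 digits other than it and NR 7 d replicate 2 to 6867 to 11201.

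Over the 39 digits, Cox6c (median 778 normalized TPM), Cox7b (577), Uqcrb (458), Ndufa4 (373) and Ndufb10 (306) were the highest members. Cox7b2 and Cox8c were listed at 0 in all 41 digits, Cox6a2 in 39, Cox8b in 35, Cox7a1 in 26 and Cox6b2 in 20. These 6 restricted isoforms were left out of each digit comparison for low counts, and the other 57 members were tested. Macrophage and digit tables were normalized separately, so levels are not compared between them.

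Over the 9 NR time points, edgeR's F-test passed 2 of 57 members, Ndufb11 (adjusted p = 0.0118) and Ndufs7 (adjusted p = 0.0458), where 7.62% of 14434 genes were called. DESeq2's likelihood ratio test passed 28 members against 30.5% of genes, and edgeR with RLE size factors 21 against 16.3%. In edgeR's F-test Ndufb2, Sdhb, Ndufa11, Ndufa4, Uqcrc1, Cox8a, Ndufv1 and Uqcrq came next, with adjusted p of 0.0623 to 0.118. Without the 2 libraries that stood apart, an alternative chosen after seeing the data, 4 other members passed, Ndufa4 (0.00601), Ndufa6 (0.0347), Uqcrfs1 (0.0384) and Ndufv3 (0.0429). In that fit 20.4% of genes were called. Without these libraries DESeq2 passed 8 members against 32.1% of genes, and RLE size factors 4 against 20.4%. Leaving out NR 14 d replicate 1 gave 17 members, NR 14 d replicate 3 gave 15 and NR 7 d replicate 2 gave 9, whereas each other single library gave 1 or 2. The share of all genes called in each of these single-library fits is not given here.

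At 24 h, 5 of 57 members rose and 0 fell in NR digits against 0 h. Of 13420 genes, 9.58% were called higher and 16.8% in either direction, so the rises lay near the share of all genes. At an unadjusted p under 0.05 there were 13 members, against 32.9% of genes. Ndufa4 stood at 318, 322 and 309 normalized TPM at 0 h and at 617, 717 and 617 at 24 h, without overlap (1.104 ± 0.15, adjusted p = 0.00303). Uqcr11 of complex III went from 77.5, 83.9 and 70.6 to 120.3, 189 and 145 (1.02 ± 0.22, adjusted p = 0.0182). Cox7b of complex IV went from 566, 436 and 384 to 706, 816 and 776 (0.74 ± 0.19, adjusted p = 0.0323). These 3 members and Ndufb8, a membrane-arm subunit of complex I, did not overlap between the times. On TMM-scaled counts 15 of the 57 members tested did not overlap, passing or not. With 3 digits against 3, chance alone separates a gene at a rate of 0.1. The share over all genes was not counted, so whether members separate more often than other genes cannot be told. Ndufb8 went from 159.5, 151 and 135 to 219, 253 and 188 (0.60 ± 0.16, adjusted p = 0.0404). Uqcrc2 passed on counts (0.75 ± 0.17, adjusted p = 0.0190), but its normalized TPM overlapped, at 115, 88.9 and 104 at 0 h and 125, 97.1 and 163 at 24 h. The median over the members was 0.29, and that over all genes -0.04.

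Digits are mixed tissue, in which fewer cells of a type and less RNA per cell cannot be told apart. Neutrophil markers summed to 20.4 to 27.7 normalized TPM in NR digits at 0 h, 408 to 1138 at 12 h and 1134 to 1301 at 24 h, and 6 of 6 tested rose at 12 h and 3 of 5 at 24 h. Smooth muscle markers summed to 310.2 to 856, 129 to 513 and 244 to 289. Their part in the member values was not tested.

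At 12 h, 2 members rose and 2 fell, where 18.1% of 13075 genes were called in either direction and 11.2% higher. At an unadjusted p under 0.05 there were 10 members, against 35.1% of genes. By both thresholds the members called lay below the share of all genes. Ndufa4 stood at 597, 407 and 495 normalized TPM (0.73 ± 0.19, adjusted p = 0.0352) and Uqcrc2 at 159, 132 and 122 (0.53 ± 0.15, adjusted p = 0.0428). Ndufv3, an accessory subunit beside the flavin site, went from 90.1, 95.1 and 103 to 45.0, 49.1 and 57.2 (-1.06 ± 0.20, adjusted p = 0.0104), and Ndufb3 from 72.0, 122 and 131 to 46.2, 56.6 and 50.3 (-1.04 ± 0.26, adjusted p = 0.0291). None of these 4 overlapped between 0 h and 12 h. On TMM-scaled counts 15 of the 57 members tested did not overlap, passing or not. The share over all genes was not counted here either, so this count cannot be set against that of other genes.

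Both counts leaned on single digits. Without NR 0 h replicate 1, 12 members passed at 12 h and 14 at 24 h, and without any other single library 1 or 2 passed at 12 h and 1 to 3 at 24 h. Shares of all genes called in these reduced fits are not given, so whether the moves are particular to the members cannot be told. By the labels' dates, NR 0 h replicate 1 and all 12 h digits fall in an earlier period and the other 0 h digits in a later one. Within the earlier period Ndufa4 stood at 318 at 0 h and 407 to 597 at 12 h, Ndufv3 at 90.1 and 45.0 to 57.2, Ndufb3 at 72.0 and 46.2 to 56.6, and Uqcrc2 at 115 and 122 to 159. At 24 h, Ndufa4 stood at 617 and 617 against 318 in the earlier period and at 717 against 309 to 322 in the later one. Uqcrc2 at 24 h stood at 97.1 against 88.9 to 104 in the later period. With all 41 digits in 1 fit, 0 members passed at 12 h and 1, Ndufa4, at 24 h, where 2.88% and 2.23% of genes were called. In the same fit without the 2 libraries that stood apart, 2 and 7 passed, Ndufa4 being among them at both times, where 13.3% and 11.5% of genes were called.

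**Figure D5:**
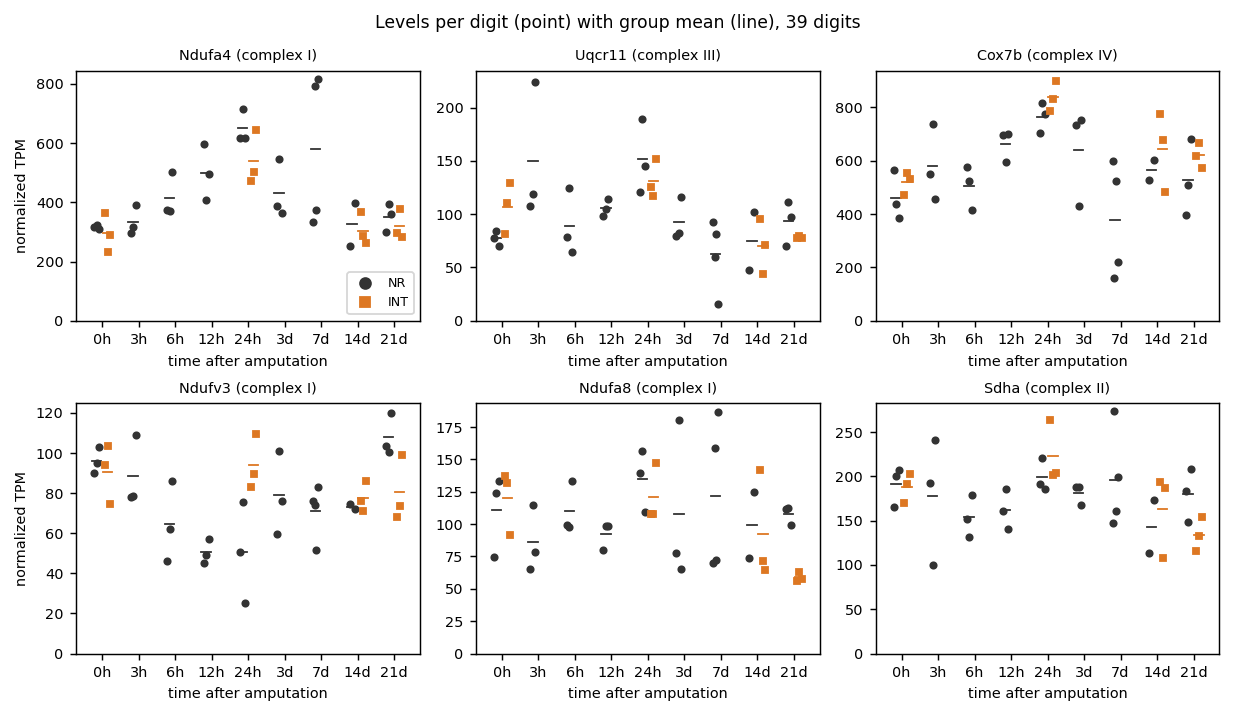
Normalized TPM of 6 members in 39 digits (points), with group means, by time after amputation in NR and INT digits, NR 14 d replicate 2 and NR 7 d replicate 2 being left out. Ndufa4 lies at 617 to 717 in NR digits at 24 h against 309 to 322 at 0 h.

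No member passed edgeR's test at the other NR times, where 0% of genes were called at 3 h and 6.62% at 6 h, and 0.723%, 0.0537%, 0% and 0.452% on days 3, 7, 14 and 21. At an unadjusted p under 0.05 there were 6, 1, 1, 0, 2 and 0 members at these times, against 10.8%, 25.6%, 11.1%, 4.34%, 7.70% and 7.20% of genes, and DESeq2 passed 0 at each. The median over the members was 0.18 at 3 h, 0.03 at 6 h, 0.09 on day 3, -0.05 on day 7 and 0.13 on day 21. At 14 days it was 1.06, and it stood at -0.10 without NR 14 d replicate 2 and at 1.51 without NR 14 d replicate 1. With all 41 digits in 1 fit 9 members passed at 14 days, where 4.95% of genes were called, and without the 2 libraries that stood apart 0 passed, where 1.87% were. Ndufa4 was uneven at 7 days, at 335, 355, 794, 373 and 816 normalized TPM. Its relative Ndufa4l2 went from 27.8, 31.8 and 21.7 at 0 h to 132, 104 and 170.2 at 3 days (2.33 ± 0.25, adjusted p = 0.00571).

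In INT digits no member passed at 24 h or 14 days against 0 h, where 0.0152% and 1.81% of genes were called. At an unadjusted p under 0.05 there were 12 and 6 members, against 15.4% and 13.4% of genes. DESeq2 passed 2 and 0, where it called 4.02% and 4.88% of genes. Ndufa4 stood at 364, 234 and 288 normalized TPM at 0 h and 472, 501 and 646 at 24 h, which did not overlap (0.84 ± 0.18, adjusted p = 0.128). On TMM-scaled counts 18 of the 57 members tested did not overlap at 24 h. The share over all genes was not counted, so whether this is particular to the members cannot be told. At 21 days 1 member fell, where 1.80% of genes were called. Ndufa8, an accessory subunit of complex I, went from 137, 131 and 91.3 to 56.3, 62.8 and 57.8 (-1.04 ± 0.18, adjusted p = 0.0249). In the earlier period alone, it stood at 91.3 to 131 at 0 h and 56.3 to 62.8 at 21 days. Leaving out INT 0 h replicate 1 or 2 or INT 21 d replicate 1 left 0 members. The median over the members was 0.24 at 24 h, -0.18 at 14 days and -0.26 at 21 days. Osteoblast markers summed to 214 to 581 at 0 h and 2029 to 5017 at 21 days, and their part was not tested.

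Between INT and NR digits of the same time, no member differed in edgeR's test at 0 h, 24 h or 14 days, where 0%, 0% and 0% of genes were called. At an unadjusted p under 0.05 there were 2, 1 and 2 members and 491, 1472 and 270 genes, and DESeq2 passed 0 members at each time. At 21 days 2 members were lower in INT digits, where 0.932% of genes were called. DESeq2 passed 9 members there, where it called 4.29% of genes. Ndufa8 stood at 112, 112 and 99.5 normalized TPM in NR and 56.3, 62.8 and 57.8 in INT digits (-0.93 ± 0.15, adjusted p = 0.0404). Ndufb10 stood at 363, 394 and 384 in NR and 238, 245 and 265 in INT digits (-0.70 ± 0.12, adjusted p = 0.04999, just under the threshold). All NR digits at 21 days fall in the later and all INT digits in the earlier period, so group and period cannot be told apart. In the labels INT 14 d replicate 1 and NR 14 d replicate 3 carry the same mark, date and side, as do 5 pairs of digits in all, NR 0 h replicate 1 and NR 12 h replicate 3 among them, and whether such digits came from 1 animal is not given in the sources used here. By the methods only digit 3 of each hindlimb was amputated, which gives 1 animal 1 digit per side. Without either of the 14-day digits 0 members passed at 14 days. At 21 days, leaving out any single library left 0 members, except that 1 passed without NR 21 d replicate 3.

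The interaction of group and time over the 24 digits at the 4 shared times was passed by 0 of 57 members in edgeR's F-test, where 0% of 14768 genes were called. At an unadjusted p under 0.05 there were 11 members, against 7.1% of genes, Ndufb11 having the smallest p (adjusted p = 0.660), and DESeq2 passed 0. Without NR 14 d replicate 2, 0 passed, with Ndufs5 first (adjusted p = 0.386). In that fit 8 members had an unadjusted p under 0.05, and the share of all genes is not given. Only Ndufb11, Ndufb8 and Ndufv3 of the 11 were among these 8, so which members stood under 0.05 depended on that library. A difference in the course of these subunits between NR and INT digits was not detectable with 3 digits a group.

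Related lists were set beside 11.2% of genes called higher in NR digits at 12 h and 9.58% at 24 h. Falls in these lists are not given here. The comparisons are those whose member counts moved when single digits were left out, and the lists were not recounted in that way. Mitochondrially encoded chain genes had 0 of 11 higher at 12 h and 0 at 24 h, and ATP synthase genes 0 and 1 of 16. TCA cycle genes had 1 of 13 higher at each time. Genes of mitochondrial membranes and import had 5 of 17 higher at 12 h and 7 at 24 h, with Vdac2, a channel of the outer membrane, at 0.95 ± 0.16 and the import receptor Tomm20 at 0.87 ± 0.16 at 24 h. The biogenesis coactivator Pprc1 rose at 12 h (1.197 ± 0.19) and 24 h (1.22 ± 0.18), and Cyc1, cytochrome c1 of complex III, rose at 24 h (0.77 ± 0.21, adjusted p = 0.0388).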

How the data were processed

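Poly-A RNA of 9 macrophage and 41 digit samples had been sequenced as 65-base single-end reads after 18 cycles of PCR, without molecular identifiers. The authors aligned the reads with Bowtie (2 mismatches and up to 200 hits per read allowed) to Ensembl release 75 genes and deposited expected counts per gene from RSEM 1.2.3, which splits reads shared by similar genes. The authors also deposited TPM that they had normalized between samples by the median-by-ratio method, separately for macrophages and digits. Columns of these deposited values no longer sum to a fixed total, so they were handled as a signal scaled by the authors and not as plain TPM. They served for levels and for 1 alternative, and expected counts, rounded to whole numbers, for tests.

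Tests between 2 groups used edgeR (version 4.0.16, under R 4.3.3) with filterByExpr, TMM scaling and the quasi-likelihood test across all genes, with Benjamini-Hochberg adjustment over all genes tested and an adjusted p under 0.05 as passed. The study's own test was not available here. SE is the absolute log2 fold change divided by the square root of F. F-tests covered the 9 NR time points and the group by time interaction. Scripts were tested on simulated data. Groups, periods and amputation levels came from the labels. Members and gene lists were chosen with earlier results of these data known. Named members were the up to 10 highest and lowest passing in each macrophage comparison, up to 5 in each digit comparison, the 10 smallest adjusted p of each F-test, the isoform pairs, the core and redox-centre subunits, and all members left out for low counts. A member that this rule names is counted in the totals but not reported here by itself. Single genes of other lists are examples chosen after their values were seen.

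Alternatives were DESeq2 1.42.0, RLE size factors, no low-count filter, a 2-fold threshold, all libraries in 1 fit, label-date period as a term, the replicate block, single replicates left out and, chosen after seeing the data, library totals and the fits without the 2 digit libraries that stand apart. Deviations of same-numbered macrophage libraries correlated at -0.0981 to 0.0985, and those of different numbers at -0.0886 to 0.126. Same-numbered libraries thus did not stand out, which cannot exclude a shared origin with little effect on counts. Totals of 1468749 to 13011782 expected counts in digits limit precision there more than the 15683424 to 27904773 in macrophages.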

Additional observations from a re-analysis of the deposited data

Results flagged for a closer look

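Within groups of 4 to 10 samples, a highest or lowest sample whose gap to the next exceeded Dixon's 95% limit was marked, which only the 5 NR digits at 7 days allowed. Of 67 items examined, 7 were marked, and chance marks about 1 in 20. In NR 7 d replicate 2, a library that stood apart, the sum of complex III was 3429.9 normalized TPM against 1174 to 1372 in the other 4 digits. In the same library Uqcrb stood at 1802 against 304 to 536, Uqcrh at 1133 against 139.9 to 383 and Ndufc1 at 1164 against 143 to 252. Below the others lay Ndufa1, at 0 against 138 to 154, and Cox6b1, at 25.8 against 183 to 241. In NR 7 d replicate 3, Cox7a1 stood at 3.36 and was listed at 0 in the other 4 digits. With these at 0 any value above 0 is marked, and Cox7a1 was left out of the digit tests for low counts.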

How the results depend on the processing

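On library totals, the members that had risen on the TMM scale stood in M1 against M0 at -0.62 (Cox5a), -0.19 (Cox6a1), -0.60 (Cox6b1), -0.33 (Cox7a2), -0.36 (Cox8a), -0.33 (Ndufa11), -0.43 (Ndufa2), -0.15 (Ndufb9), -0.51 (Ndufs4), -0.32 (Sdhb), -0.26 (Sdhd), -0.61 (Uqcrc2) and -0.60 (Uqcrq), and in M1 against M2 Ndufv3 at -0.38 and Sdhd at -0.43. The scaling moves all genes down together, with a median of -0.86 over all genes tested in M1 against M0. On that scale 0 members were higher and 56 lower in M1 than in M0, 0 were higher in M1 than in M2, 2 passed in NR digits at 24 h, 0 between INT and NR digits at 21 days and 1 over the NR time points. With more than 2-fold of the mean TMM-scaled count plus 1 required, 0 were higher and 4 lower in M1 than M0, 3 higher and 0 lower in M2 than M0, 0 higher and 14 lower in M1 than M2, 2 changed in NR digits at 12 h and 2 at 24 h, and 0 differed between INT and NR digits at 21 days. All 9 macrophage libraries in 1 fit gave 8 higher in M1 than M0. The replicate block gave 12 higher and 30 lower in M1 than M0, 48 and 3 in M2 than M0, and 3 and 53 in M1 than M2. The labels of the digits carry no replicate numbers, so no paired fit was made for them.

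DESeq2 passed 9 members in NR digits at 24 h, 2 in INT digits at 24 h, 3 at 21 days, 9 between INT and NR digits at 21 days and 28 over the NR time points. RLE size factors gave 1 between INT and NR digits at 21 days and 21 over the NR time points. Without the low-count filter 2 passed in INT digits at 21 days, 1 between groups at 21 days and 5 over the NR time points. With all 41 digits in 1 fit, 0 passed in NR digits at 12 h, 1 at 24 h and 9 at 14 days, 0 in INT digits at 21 days and 0 between groups at 21 days. With the period added, these were 1, 1, 10, 0 and 0, and 1 passed over the NR time points. In 1 fit without the 2 libraries that stand apart, 2 passed at 12 h, 1 at 7 days, 0 at 14 days, 0 in INT digits at 21 days and 0 between groups at 21 days, and 4 over the NR time points, where DESeq2 gave 8 and RLE size factors 4. The cause of these moves was not tested. Leaving out single replicates gave 11 to 14 higher and 28 to 30 lower in M1 than M0, 47 to 50 and 3 to 3 in M2 than M0, 2 to 3 and 52 to 53 in M1 than M2, 1 to 12 in NR digits at 12 h, 1 to 14 at 24 h, 0 to 1 in INT digits at 21 days, 0 to 1 between groups at 21 days and 1 to 17 over the NR time points. Shares of all genes called in these reduced fits are not given here. Of the alternative values of single members' log2 fold changes, 1817 kept direction and side of the threshold, 136 kept only direction and 15 turned. With 3 digits a group, counts of members passing in digits are the least stable values here.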
